A study of Homo sapiens with 12 samples.

Results

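Oxidative phosphorylation is described here through 108 genes of a count table of 28395 gene identifiers, 95 of them nuclear and 13 encoded by mitochondrial DNA. The nuclear members were all genes whose symbols begin with NDUFA, NDUFB, NDUFC, NDUFS, NDUFV, UQCR, COX4 to COX8 or ATP5, plus SDHA to SDHD and CYC1. Of the 104 symbols that matched, 3 pseudogenes, 4 noncoding RNAs and 2 readthrough loci were left out. The mitochondrial members were the 13 protein genes of mitochondrial DNA. Membership followed symbols and used no measured value, but the set and its rule were chosen with earlier results of these data known. NDUFA4 is listed under its current symbol COXFA4 and fell outside the symbol rule, so it is given apart.

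RNA was sequenced from BEAS-2B, an immortalised line of human bronchial epithelial cells, in 4 groups of 3 libraries that the labels call biological triplicates. All cells were first kept for 24 h without serum or steroid. The control group had no further treatment, the TGF-β1 group received 40 pM TGF-β1 for 24 h, the dexamethasone group received 30 nM dexamethasone for 4 h, and the combined group received TGF-β1 for 24 h and then dexamethasone for a further 4 h. As described, the treatments differed in length, so time in culture and treatment cannot be told apart where these lengths differ. TGF-β1 is a cytokine of injury and fibrosis, and dexamethasone is a drug that activates the glucocorticoid receptor. The design compares the treatments with each other and with the untreated control, and the study's title concerns loss of glucocorticoid response under TGF-β1. In the labels, the text on culture conditions names A549 lung carcinoma cells, while the cell type, source and treatment fields name BEAS-2B. All 7 epithelial markers examined were detected, at 4.7 to 2200 CPM (counts relative to the scaled library size). Leukocyte markers reached at most 0.193 CPM, fibroblast markers 1.58 CPM and endothelial markers 2.33 CPM, and HBA1 and HBB were at 0. Of 5 transcripts examined with A549 cells in mind, AKR1B10, AKR1C2, ALDH1A1, SFTPB and SFTPC, the highest reached 8.95 CPM. That was AKR1B10 in a dexamethasone library, and this gene moved with the treatments, at 1.11 to 1.97 CPM in control, 0 to 0.464 CPM with TGF-β1, 6.95 to 8.95 CPM with dexamethasone and 0.162 to 1.04 CPM with both. The endothelial marker PECAM1 rose with TGF-β1 (log2 difference 1.38, SE 0.48; edgeR adjusted p 0.0411), from 0.303 to 1.4 CPM to 1.7 to 1.93 CPM. The part of these genes in the results was not tested.

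The respiratory chain sits in the inner mitochondrial membrane. Complexes I and II pass electrons from NADH and succinate to coenzyme Q, complex III passes them on to cytochrome c, and complex IV reduces oxygen. Complexes I, III and IV pump protons, and ATP synthase (complex V) uses their return to make ATP. Complex II is wholly nuclear encoded, whereas the other complexes join subunits from both genomes. Mitochondrial DNA is transcribed from few start sites into long transcripts that are cut into the individual messages, and each nuclear gene has its own promoter.

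Total counts per library lay between 5861591 and 19727235, and replicate 3 of every group was the deepest. Counts were scaled with edgeR's TMM factors, and each effect is a log2 fold change, given with its standard error (SE), that edgeR tested by quasi-likelihood over all 12 libraries and called at a Benjamini-Hochberg adjusted p under 0.05 over the 13469 genes tested. TMM scaling places the median gene near 0. With library size alone, the median of all genes stood at -0.22 for TGF-β1 against control and at -0.23 for the combined treatment against dexamethasone, so every direction is relative to the median gene. Libraries with the same replicate number deviated together, and a fit with that number as a block is given where it changes a count. The members passed the filter on low counts in 90 of 95 nuclear cases and in all 13 mitochondrial ones. The 5 nuclear members that did not pass, COX4I2, COX6A2, COX7A1, COX7B2 and COX8C, had 0 to 67 reads in all 12 libraries together.

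The share of all raw counts that fell on the 13 mitochondrial genes was 1.85% to 2.403% in control libraries, 1.58% to 1.75% with TGF-β1, 2.13% to 2.76% with dexamethasone and 1.74% to 1.80% with both. The 95 nuclear members took 0.699% to 0.827% in control, 0.599% to 0.617% with TGF-β1, 0.662% to 0.834% with dexamethasone and 0.572% to 0.606% with both. As shares of the raw total, every library with TGF-β1 lay below every library without it for both sets. These shares are fractions of the total count, so they also move when other genes gain counts, and with TMM scaling the libraries overlapped. The scaled nuclear sum was 6357 CPM in control replicate 2 and 6282 CPM in dexamethasone replicate 2, against 6251 to 6886 CPM in the 6 libraries with TGF-β1. The scaled mitochondrial sum was 16810 CPM in control replicate 2, below all 6 libraries with TGF-β1 (16910 to 20090.0 CPM). In bulk RNA, fewer cells that express a gene and less of its RNA per cell cannot be told apart.

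The ratio of mitochondrial to nuclear member counts does not depend on how libraries are scaled. It was 2.71, 2.64 and 2.91 in the control libraries and 2.88, 2.69 and 2.64 with TGF-β1, and these groups overlapped. With dexamethasone it was 3.18, 3.22 and 3.31, above every control library. With both agents it was 2.92, 2.93 and 3.14, above every library with TGF-β1 alone and below every library with dexamethasone alone. Between libraries of the same number, the ratio with dexamethasone was 1.17, 1.22 and 1.14 times that of the control. The combined treatment gave 1.01, 1.09 and 1.19 times the ratio of TGF-β1 alone. The ratio was formed after the values had been seen and carries no test.

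**Figure D1:**
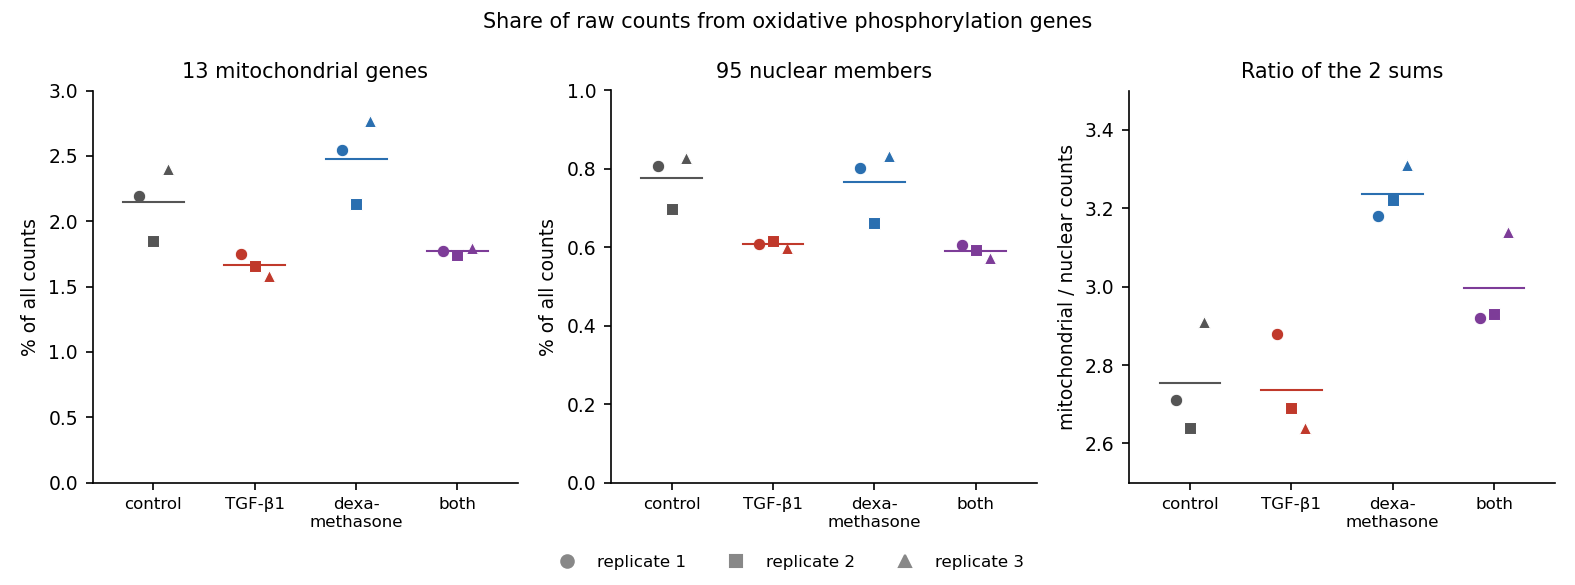
Share of raw counts, in percent, from the 13 mitochondrial genes (left) and the 95 nuclear members (middle), and the ratio of the sums (right, axis not starting at 0), by treatment group. Symbols are the 3 libraries of a group and lines their mean. Both raw shares are lower in all 6 libraries with TGF-β1, whereas in the TMM-scaled sums the libraries with and without TGF-β1 overlap. The ratio is highest in the 3 dexamethasone libraries, at 3.18 to 3.31.

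With TGF-β1 some subunit genes in each of the 5 complexes were called lower, about as often as genes in general, and 2 complex I genes were called higher. Against control, 14 of 90 tested nuclear members fell and 2 rose, while the median member changed by -0.10 against -0.01 for all genes. Among all 13469 genes 16.6% fell and 16.2% rose, so the falling share of members was near the background, and the rising share, 2 of 90, was below it. With the replicate block the counts were 24 lower and 8 higher, against 25.5% and 24.6% of all genes. With library size alone they were 41 lower and 1 higher, against 32.2% and 9.29%. The 2 rises became 1 without replicate 1 or 3 of either group. The 14 falls became 6 without control replicate 1, 4 without control replicate 3, and 8, 8 and 7 without TGF-β1 replicates 1, 2 and 3. Of the 16 calls, 5 passed in all 12 fits that left out 1 library, and all 16 passed with the block. Counts per complex in the next paragraphs are to be read against the same shares of all genes.

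In the catalytic head of ATP synthase, called F1, 4 of 5 genes fell, the exception being the epsilon subunit gene. F1 holds the beta subunits, at which ATP is made as the central stalk turns. ATP5F1B, the beta subunit, stood at 779.7, 585 and 772 CPM in control and at 493, 496 and 447 CPM with TGF-β1. The groups did not overlap, although control replicate 2 lay closest to the treated libraries. Such separation was common in this comparison. It was seen for 3049 lower and 2983 higher genes of 13469, and for 17 lower and 7 higher of the 90 nuclear members. ATP5F1B (chromosome 12, 56638175 to 56645984, GRCh38.p14) fell by 0.58 (SE 0.13) on the log2 scale, with an adjusted p of 0.00365 from edgeR. It fell in all 12 leave-one-out fits. ATP5F1D, the delta subunit of the central stalk (chromosome 19, 1241751 to 1244825), had 78.4, 64.7 and 86.9 CPM in control and 54.3, 58.9 and 51.4 CPM with TGF-β1. It fell by 0.49 (SE 0.12; edgeR adjusted p 0.00595). ATP5F1A, the alpha subunit, had 410.3, 353 and 429 CPM against 321, 342 and 320.2 CPM, and fell by 0.28 (SE 0.09; edgeR adjusted p 0.0253). ATP5F1C, the gamma subunit that rotates inside the head, fell by 0.25 (SE 0.09, edgeR adjusted p 0.0475). The call on ATP5F1C was lost in 8 of the 12 leave-one-out fits, that on ATP5F1A in 4 and that on ATP5F1D in 0.

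ATP5F1E, the epsilon subunit, did not pass without the block. Its levels were 74.6, 74.7 and 70.0 CPM in control and 96.4, 78.7 and 76.7 CPM with TGF-β1, with no overlap. Its log2 difference was 0.20 (SE 0.09), with an adjusted p of 0.13 without and 0.0192 with the replicate block. With library size alone the difference was -0.01, so the direction rests on the scaling. ATP5IF1, the inhibitor that blocks the head when it would run in reverse, fell by 0.30 (SE 0.10; edgeR adjusted p 0.026), from 80.1 to 89.9 CPM in control to 66.8 to 70.4 CPM. Among the 10 stalk and membrane subunits only ATP5PO, which forms part of the outer stalk, passed, at -0.28 (SE 0.09; edgeR adjusted p 0.0308). None of the 3 genes for the c subunit of the rotor ring passed, and ATP5MC3, with 129 to 198 CPM in control and 125 to 131 CPM with TGF-β1, came nearest at -0.40 (SE 0.15; edgeR adjusted p 0.0601, with the block 0.0433).

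In complex II, which links the citric acid cycle to the chain, 2 of 4 subunit genes fell. SDHA, the flavoprotein that oxidises succinate (chromosome 5, 218320 to 268746), had 255, 226 and 281 CPM in control and 191, 183 and 177 CPM with TGF-β1. All treated libraries lay below all control libraries, and the gene fell by 0.47 (SE 0.10; edgeR adjusted p 0.00211), also in all 12 leave-one-out fits. SDHD, a membrane anchor, had 34.9, 34.2 and 38.5 CPM against 29.4, 25.2 and 27.9 CPM and fell by 0.39 (SE 0.11; edgeR adjusted p 0.0128). SDHB, the iron-sulfur subunit, differed by -0.01 (SE 0.12), and SDHC, the other anchor, by -0.05 (SE 0.11). The 4 genes of this complex therefore had unequal measured differences, but the differences between them were not tested.

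**Figure D2:**
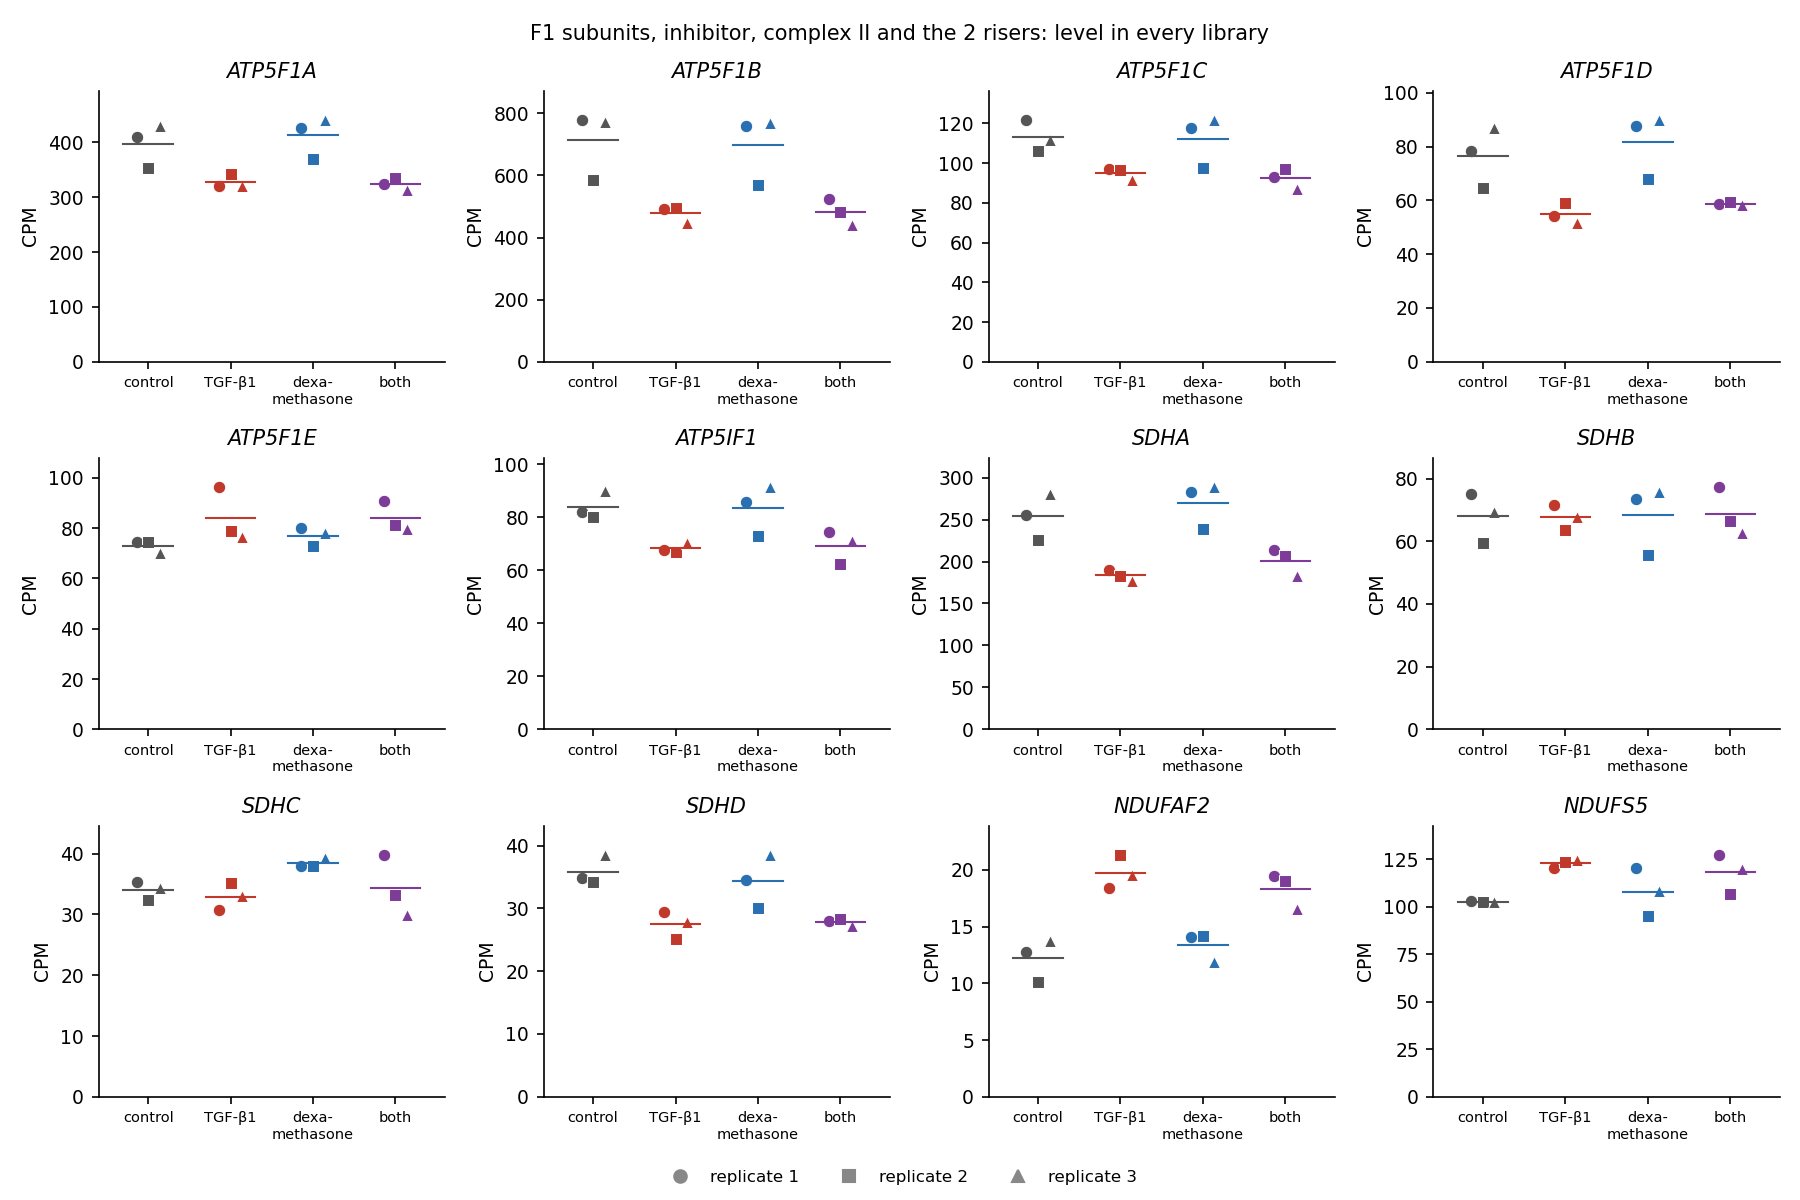
CPM in every library for the F1 genes, the inhibitor gene ATP5IF1, the complex II genes, and NDUFAF2 and NDUFS5, by treatment group. Symbols are the 3 libraries of a group and lines their mean; ATP5F1B stands at 585 to 779.7 CPM in control and at 447 to 496 CPM with TGF-β1, whereas NDUFAF2 is higher in all 6 libraries with TGF-β1.

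Complex I, the largest complex, has a core that carries the flavin and iron-sulfur centres, and supernumerary subunits around it. Of the 7 nuclear core genes 3 fell. NDUFV2, an iron-sulfur protein beside the flavin, had 36.8, 36.6 and 40.3 CPM in control and 27.7, 29.5 and 27.2 CPM with TGF-β1, a fall of 0.44 (SE 0.11; edgeR adjusted p 0.00652). NDUFS8 (-0.29) and NDUFV1 (-0.27), which holds the flavin itself, fell less. Of the 29 supernumerary genes 1 fell, NDUFB1 (-0.45, SE 0.14), and its control and treated libraries overlapped. The same class held 1 of the rises, NDUFS5 (chromosome 1, 39026350 to 39034615), at 103, 103 and 102 CPM against 120.4, 123.4 and 124.6 CPM. NDUFS5 rose by 0.26 (SE 0.09; edgeR adjusted p 0.0393) with TMM, and differed by 0.05 with library size alone.

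The larger rise was that of NDUFAF2, an assembly factor that binds complex I while it is being built and is not part of the finished enzyme. Its levels were 12.7, 10.1 and 13.7 CPM in control and 18.4, 21.3 and 19.5 CPM with TGF-β1, with no overlap. It rose by 0.68 (SE 0.14; edgeR adjusted p 0.00178) and stayed higher, at 0.47 (adjusted p 0.0164), with library size alone. The gene (chromosome 5, 60945205 to 61153026) was the only one of 8 NDUFAF genes to pass in this comparison. Without the NDUFAF genes, 1 nuclear member rose.

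In complex III 1 of 10 nuclear genes fell, UQCRC2, a core protein that faces the matrix, by 0.30 (SE 0.10; edgeR adjusted p 0.0298). CYC1, which carries the haem of cytochrome c1, differed by -0.10 (SE 0.13). In complex IV 1 of 12 tested nuclear genes fell, COX7C, from 153, 126 and 151 CPM to 117, 94.6 and 107 CPM, a change of -0.44 (SE 0.14; edgeR adjusted p 0.0266). The call on UQCRC2 was lost in 5 and that on COX7C in 4 of the 12 leave-one-out fits. With the block 4 complex IV genes were lower and 2 higher, against 25.5% and 24.6% of all genes.

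Promoters are printed for members that TGF-β1 changed: the 4 falling members with at least 1 match to a motif of a known regulator of respiratory genes, and NDUFAF2, which rose. They were chosen after the values had been seen. Each sequence is the 250 bases before the RefSeq start on the gene's own strand, in build GRCh38.p14, with motif matches in capitals. The motifs searched on both strands were GCGCANGCG for NRF1, CCGGAAG for ETS factors, AAGATGGCG for YY1, TGACGTCA for cyclic AMP response element binding proteins and TCAAGGTCA for estrogen-related receptors. The ETS and YY1 motifs share letters at their ends, but in 0 member promoters did different motifs overlap.
SDHA, chr5:218070-218319, plus strand: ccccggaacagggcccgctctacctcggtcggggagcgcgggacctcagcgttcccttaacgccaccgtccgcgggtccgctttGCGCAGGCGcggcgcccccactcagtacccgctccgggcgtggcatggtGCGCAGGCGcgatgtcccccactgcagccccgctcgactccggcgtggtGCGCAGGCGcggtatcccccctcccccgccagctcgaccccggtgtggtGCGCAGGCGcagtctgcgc
SDHD, chr11:112086623-112086872, plus strand: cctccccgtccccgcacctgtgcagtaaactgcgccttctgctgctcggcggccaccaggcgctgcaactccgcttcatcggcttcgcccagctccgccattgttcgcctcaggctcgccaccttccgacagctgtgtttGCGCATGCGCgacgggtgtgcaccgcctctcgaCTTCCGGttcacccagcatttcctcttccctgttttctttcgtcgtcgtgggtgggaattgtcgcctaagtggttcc
ATP5PO, chr21:33915805-33916054, minus strand: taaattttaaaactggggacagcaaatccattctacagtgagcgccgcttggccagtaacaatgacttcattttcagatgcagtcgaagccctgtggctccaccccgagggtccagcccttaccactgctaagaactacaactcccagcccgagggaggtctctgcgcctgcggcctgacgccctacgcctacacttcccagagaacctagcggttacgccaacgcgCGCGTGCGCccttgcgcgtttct
ATP5F1C, chr10:7787927-7788176, plus strand: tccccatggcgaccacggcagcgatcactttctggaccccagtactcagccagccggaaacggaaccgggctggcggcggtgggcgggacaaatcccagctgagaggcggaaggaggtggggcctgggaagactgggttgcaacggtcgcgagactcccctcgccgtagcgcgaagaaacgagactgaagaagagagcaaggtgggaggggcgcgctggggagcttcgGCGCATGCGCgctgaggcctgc
NDUFAF2, chr5:60944955-60945204, plus strand: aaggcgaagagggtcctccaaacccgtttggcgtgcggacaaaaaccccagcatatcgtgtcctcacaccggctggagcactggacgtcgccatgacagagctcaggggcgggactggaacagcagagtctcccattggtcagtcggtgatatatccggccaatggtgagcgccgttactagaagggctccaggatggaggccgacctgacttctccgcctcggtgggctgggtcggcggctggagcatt

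The SDHA promoter held 4 matches to the NRF1 motif, beginning at -166, -117, -68 and -19 from the start, each 49 bases from the next. SDHD held overlapping matches on both strands from -110, an ETS match at -77 and, 11 bases past the start and so outside the printed stretch, the estrogen-related receptor motif. ATP5F1C held overlapping NRF1 matches on both strands from -22 and ATP5PO one at -23. The NDUFAF2 stretch held none of these letters. RefSeq promoters of 300 bases, 250 before and 50 after the start, were at hand for 77 nuclear members. Of these 24 (31.2%) held the NRF1 motif, against 11.0% of the 15843 promoters of protein-coding genes and 8.05% of all 27305. The ETS motif stood in 27.3% of members, against 14.2% of coding and 10.7% of all promoters. The YY1 motif stood in 10.4%, against 2.74% and 1.85%, and any of the 5 in 59.7%, against 26.7% and 20.0%. Of the 12 falling members with a promoter, 4 held the NRF1 motif, 1 the ETS motif and 4 any of them. These matches are letters in a window and were not measured as binding. The members without an entry included ATP5F1B, ATP5F1D and NDUFS5.

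The TGF-β1 effect was measured a second time in cells that also received dexamethasone, by comparing the combined treatment with dexamethasone alone, and that comparison shares no library with the first. The comparisons are still not fully independent. Both came from the same fit with a shared spread, and same-numbered libraries deviated together across groups. Of 90 nuclear members 18 fell and 2 rose, against 16.4% and 15.9% of all genes. With the block these were 27 and 5, against 26.0% and 24.0%, and with library size alone 47 and 0, against 33.2% and 9.84%. Of the 14 members that fell without dexamethasone, 13 (92.9%) also fell with it, which is 72.2% of the second list. This overlap was not computed for all genes, so it is not shown to be particular to the members. NDUFAF2 rose in both. The sign was the same for 81 of 90 members, 62 of them negative, and for 82.4% of all genes. The 18 falls became 10 and 8 without replicates 2 and 3 of the combined group and 9 and 8 without replicates 1 and 3 of the dexamethasone group, and 8 of the 20 calls passed in all 12 leave-one-out fits.

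ATP5F1B had 759, 568 and 769 CPM with dexamethasone and 523, 481 and 442 CPM with both, a fall of 0.54 (SE 0.13; edgeR adjusted p 0.00593). SDHA had 282, 239 and 289 CPM against 213, 206 and 183 CPM, a fall of 0.43 (SE 0.10; edgeR adjusted p 0.00398). In each gene all libraries of the combined group lay below all dexamethasone libraries. ATP5F1D (-0.48) and ATP5F1A (-0.35) fell again, and ATP5F1E again had the opposite sign at 0.12 (SE 0.09; edgeR adjusted p 0.353). NDUFB1 fell again, by 0.55 (SE 0.14, edgeR adjusted p 0.00931), and here its libraries did not overlap. It had 31.5, 26.2 and 32.5 CPM with dexamethasone and 23.0, 18.6 and 20.2 CPM with both. COX7C also fell again, from 164, 114 and 168 CPM to 120, 100 and 108 CPM, with overlap. The call on NDUFB1 was lost in 0 leave-one-out fits and that on COX7C in 4. NDUFB5, a membrane arm subunit of complex I, had the largest fall in this comparison, from 62.5, 50.3 and 66.4 CPM to 34.4, 39.2 and 47.2 CPM, or -0.56 (SE 0.14; edgeR adjusted p 0.00798). NDUFC1, another membrane arm subunit, fell by 0.49 (SE 0.12). The other additions to the falling list were COX5A, UQCRFS1, which is the iron-sulfur protein of complex III, and NDUFS1, which is a core protein of complex I. NDUFB11 rose by 0.24 (SE 0.08; edgeR adjusted p 0.0375), from 59.8 to 70.9 CPM to 74.9 to 82.0 CPM, and differed by 0.03 with library size alone. NDUFAF2 rose by 0.46 (SE 0.14; edgeR adjusted p 0.0202) with TMM, and its difference of 0.26 with library size alone had an adjusted p of 0.159. Of these rises 0 passed without replicate 1 or 2 of the combined group, and 1 without replicate 2 or 3 of the dexamethasone group.

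**Figure D3:**
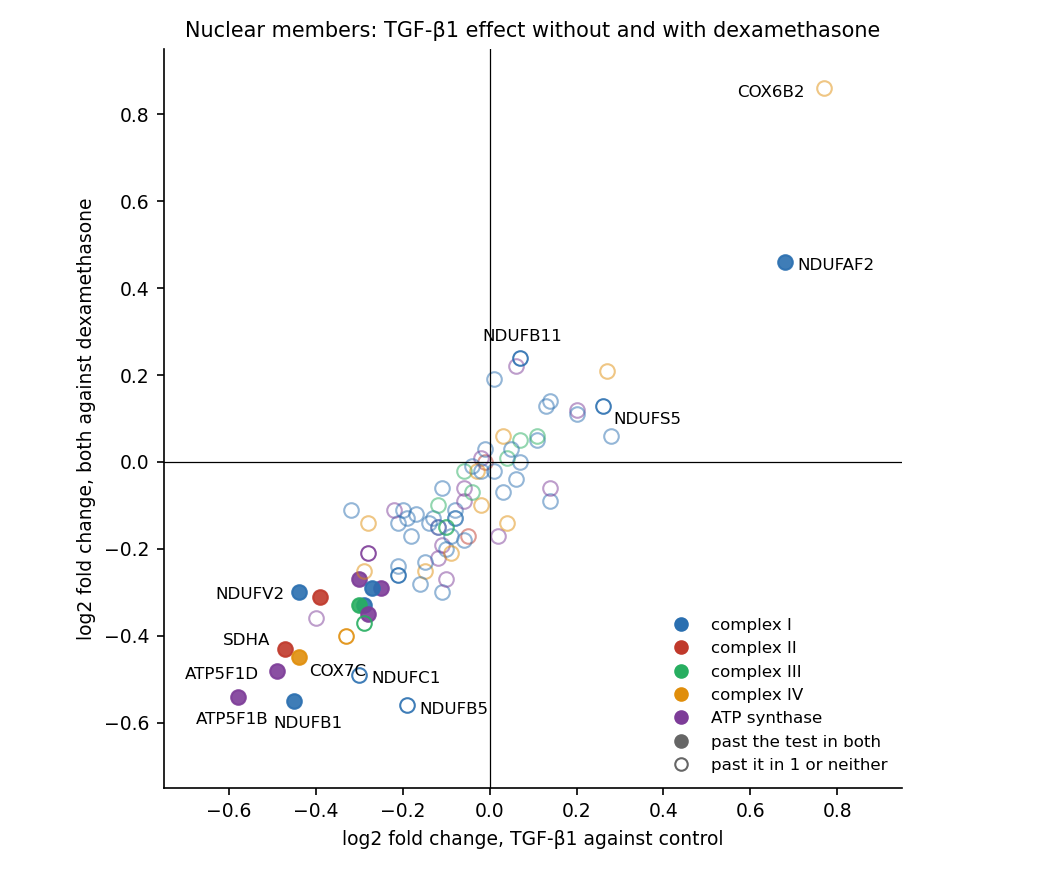
Log2 fold change of the 90 tested nuclear members for TGF-β1 against control (x axis) and for the combined treatment against dexamethasone (y axis), coloured by complex. Filled points passed the test in both comparisons; 13 lie in the lower left and NDUFAF2 in the upper right.

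For the 13 mitochondrial genes the first TGF-β1 comparison passed none in edgeR, 0 at an unadjusted p under 0.05 and 0 in DESeq2, while 16.6% of all genes fell. All 13 log2 differences were negative, from -0.20 for MT-COX1 to -0.10 for MT-ND2, with a median of -0.15. With the block 4 fell, MT-COX1, MT-CYTB, MT-COX3 and MT-ATP6, by 0.15 to 0.20, against 25.5% of all genes. In the pair of libraries numbered 3 all 13 lay between -0.46 and -0.30, whereas in pair 2 they lay between -0.09 and 0.17. With library size alone 8 were lower, against 32.2% of all genes.

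With dexamethasone present, TGF-β1 lowered 3 mitochondrial genes: MT-ATP6 (-0.33, SE 0.11; edgeR adjusted p 0.0378), MT-ND4L (-0.31, SE 0.10; 0.0272) and MT-COX3 (-0.26, SE 0.09; 0.0461). Of all genes 16.4% fell in this comparison. MT-ATP6 encodes the membrane channel subunit of ATP synthase, MT-ND4L a small subunit of complex I and MT-COX3 a core subunit of complex IV. MT-ATP6 had 1700, 1536 and 1993 CPM with dexamethasone and 1349, 1354 and 1468 CPM with both, with no overlap. All 13 differences were negative, with a median of -0.27. With the block 11 of 13 fell, the exceptions being MT-ND3 and MT-ND6, against 26.0% of all genes. The 3 calls became 0 without replicate 3 of the combined group or replicate 1 or 3 of the dexamethasone group, 1 without replicate 1 or 2 of the combined group, replicate 1 of the control or replicate 1 of the TGF-β1 group, and 6 without replicate 2 of the dexamethasone group.

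Dexamethasone raised MT-ND4L, and with the block 12 of the 13 mitochondrial genes. Against control, no nuclear member passed in edgeR, with 0 at an unadjusted p under 0.05, 0 in DESeq2 and 0 with the block, while 5.54% of all genes rose and 4.90% fell. With the block these shares of all genes were 10.8% and 11.4%. The median nuclear difference was 0.04 and the median mitochondrial one 0.27. All 13 mitochondrial differences were positive, from 0.19 for MT-ND3 to 0.33 for MT-ND4L and MT-ATP8. MT-ND4L alone passed without the block, at 238, 213 and 257 CPM in control and 299.5, 265 and 327 CPM with dexamethasone (0.33, SE 0.10; edgeR adjusted p 0.0423). Its libraries did not overlap. With the block 12 of 13 rose, all but MT-ND6, by 0.19 to 0.33. With library size alone none passed and all 13 stayed positive, at 0.14 to 0.28. With library size and the block together 3 passed, a setting for which the share of all genes was not computed.

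Each of the 13 genes was higher with dexamethasone than in the control library of the same number in 3 of 3 pairs, which 26.5% of all genes were and 25.6% of the nuclear members. The 13 are cut from few long transcripts, so they are not 13 separate observations. The 2 ribosomal RNAs of mitochondrial DNA, which are not members, did not rise in every pair. MT-RNR1 had 4516, 6601 and 2962 CPM in control and 4266, 6165 and 2996 CPM with dexamethasone. MT-RNR2 had 6928, 8983 and 6592 CPM against 7057, 8605 and 7268 CPM. MT-ND4, a core proton-pumping subunit of complex I, had 3295, 2729 and 3778 CPM in control and 3925, 3400.0 and 4467 CPM with dexamethasone. These groups overlapped, because replicate 2 was low in both, while the log2 ratios of the pairs were 0.25, 0.32 and 0.24. MT-COX2, which takes electrons from cytochrome c, had 1675, 1483 and 1726 CPM against 2084, 1745 and 2018 CPM without overlap, and a difference of 0.26 (SE 0.11; adjusted p 0.185 in edgeR without and 0.0224 with the block). MT-CYTB, the only mitochondrial gene of complex III, had pair ratios of 0.29, 0.24 and 0.27. The call on MT-ND4L was lost without replicate 1 or 2 of the control, 1 or 3 of the dexamethasone group or 1 or 3 of the TGF-β1 group, and without control replicate 3 there were 2 calls.

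**Figure D4:**
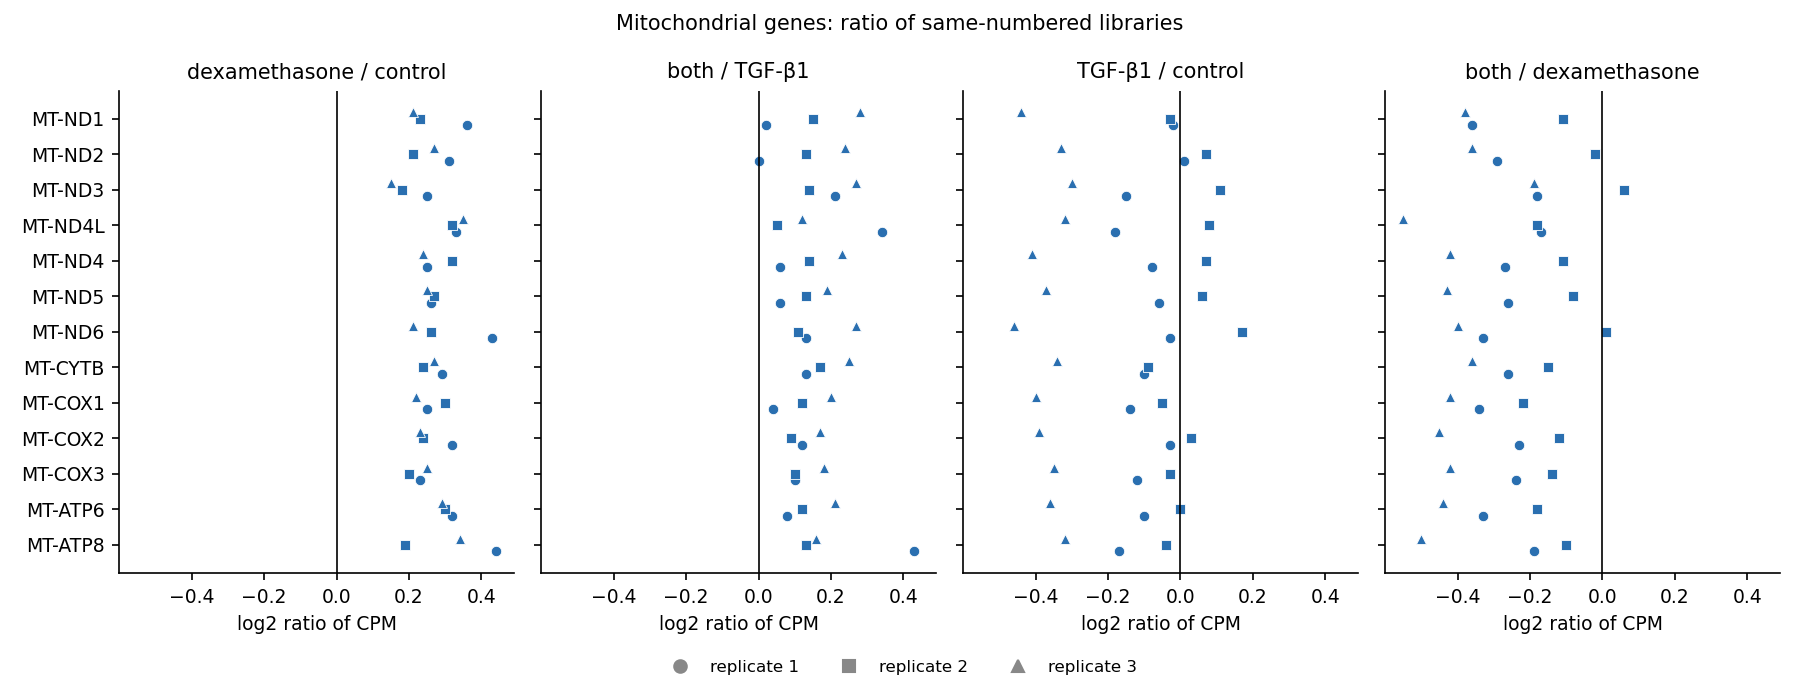
Log2 ratio of CPM between libraries of the same replicate number for the 13 mitochondrial genes in 4 comparisons; each symbol is 1 pair of libraries and the vertical line marks no difference. All 39 ratios of dexamethasone to control lie right of 0, and in the panel of TGF-β1 to control the pair 3 ratios lie furthest left, at -0.46 to -0.30.

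In cells that had received TGF-β1, dexamethasone raised 2 mitochondrial genes in the fit with the block. Against TGF-β1 alone, the combined treatment gave 13 positive mitochondrial differences between 0.12 and 0.23, with a median of 0.14. None passed in edgeR, with 0 at an unadjusted p under 0.05 and 0 in DESeq2, and with the block 2 rose, MT-CYTB (0.18, adjusted p 0.0244) and MT-ND3 (0.21, adjusted p 0.0362). Of the 13 genes 12 were higher in 3 of 3 pairs, against 24.0% of all genes, the exception being MT-ND2. These genes are cut from few long transcripts and are not separate observations. MT-RNR1 had 4253, 5920 and 2711 CPM with TGF-β1 and 4564, 5892 and 2321 CPM with both. MT-RNR2 had 6463, 7764 and 5505 CPM against 7049, 8059 and 5076 CPM. Among nuclear members none passed in edgeR, with 0 higher and 1 lower at an unadjusted p under 0.05, 0 in DESeq2 and, with the block, 1 lower: NDUFC2 (-0.35, edgeR adjusted p 0.0304). In this comparison 5.09% of all genes rose and 3.01% fell, and with the block 9.47% and 8.00%. The interaction, which tests whether the dexamethasone effect differs with TGF-β1, passed for 0 of 103 members in edgeR, with 0 at an unadjusted p under 0.05, 0 in DESeq2 and 0 with the block, against 0.884% of all genes and, with the block, 4.78%. The interaction of the mitochondrial genes ran from -0.16 to 0.02, with SEs of 0.13 to 0.35 that are as large as these differences or larger in most genes.

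Per kilobase of annotated exon the mitochondrial genes stood far above the nuclear ones. In control cells they ran from 795 CPM per kb for MT-ND4L to 2390 CPM per kb for MT-COX3, whereas the highest nuclear member, ATP5F1B, had 387 CPM per kb. The lowest mitochondrial levels belonged to complex I genes, MT-ND4L, MT-ND2 (852) and MT-ND3 (868), and the highest to MT-COX3, MT-COX2 (2380) and MT-ND4 (2370), which did not differ beyond the spread of their libraries. The libraries were polyadenylation selected and not directional. MT-ND6 lies on the opposite strand to its neighbours, so its counts cannot be told from antisense RNA. MT-ATP8 overlaps MT-ATP6 and MT-ND4L overlaps MT-ND4, so how their shared reads were assigned is uncertain.

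Several complex IV subunits have a second, tissue-restricted paralog, and in these cells the common form carried nearly all reads. COX4I1 had 57.7 CPM per kb in control and COX4I2, a lung and hypoxia form, 0.217 CPM per kb from 5 reads. COX6A1 had 96.7 CPM per kb, while COX6A2, the heart and muscle form, had 1 read in all 12 libraries, in a dexamethasone library. COX7A2 had 66.7 CPM per kb and the muscle form COX7A1 0.719. COX8A had 256 CPM per kb, and COX8C had 0 reads. COX6B2, known from testis, was the low paralog with enough reads to be tested. It had 2.43, 3.42 and 1.64 CPM in control, 3.86, 5.10 and 3.25 CPM with TGF-β1, 2.07, 2.23 and 1.197 CPM with dexamethasone and 3.89, 3.48 and 2.31 CPM with both. It was higher with TGF-β1 by 0.77 (SE 0.34; edgeR adjusted p 0.1, with the block 0.00775), and the control and TGF-β1 libraries overlapped. COX6B1, its common partner, differed by -0.28 (SE 0.14; edgeR adjusted p 0.13, with the block 0.0101). COX7A2L, which helps join complexes III and IV, was at 69.4 to 86.3 CPM in control and 75.5 to 109 CPM with TGF-β1, a difference of 0.27 (SE 0.14; edgeR adjusted p 0.168, with the block 0.000774) that was 0.06 with library size alone. COXFA4, formerly NDUFA4, differed by 0.08 (SE 0.12; edgeR adjusted p 0.664).

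**Figure D5:**
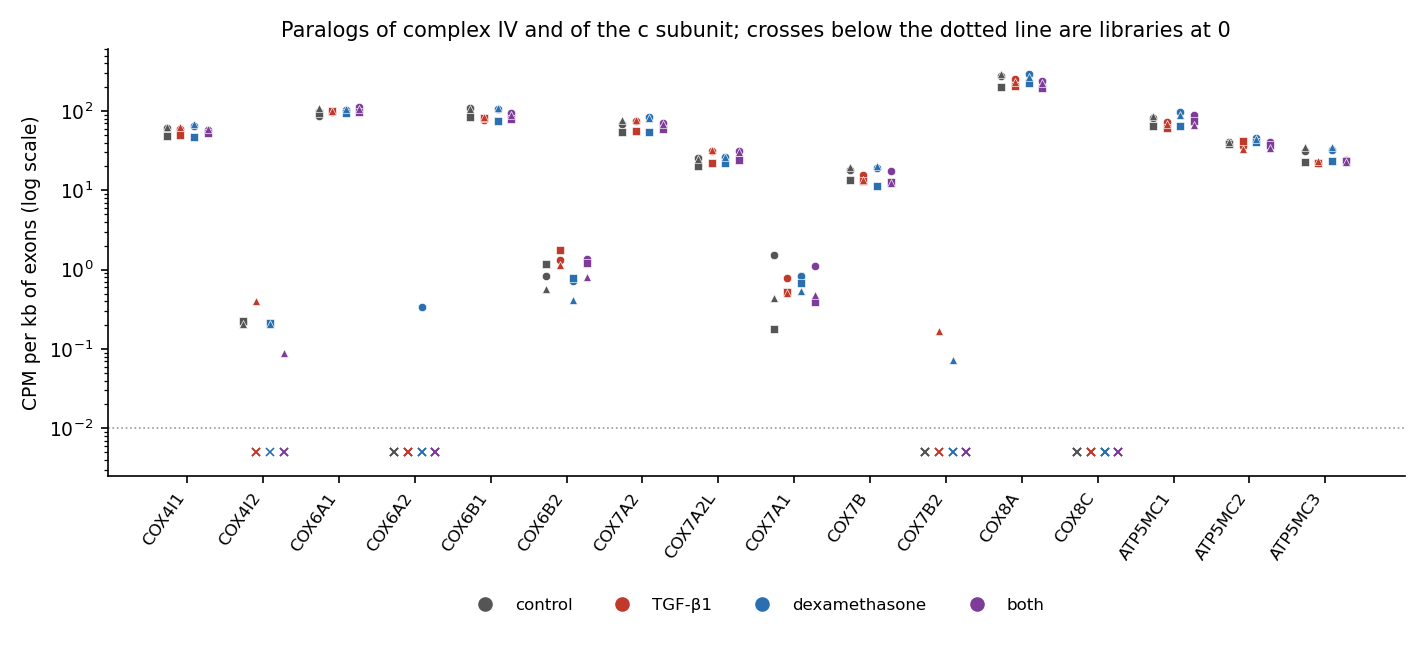
CPM per kilobase of exon on a log axis for the paralogs of complex IV and for the 3 c subunit genes, by library and treatment; crosses below the dotted line are libraries with 0 reads, and colours are the treatment groups. COX4I2, COX6A2, COX7A1, COX7B2 and COX8C stand below 2 CPM per kb in every library, and COX6B2 lies between 0.415 and 1.77.

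Among 53 nuclear members with at least 1 annotated RefSeq pseudogene are COX6C with 18, and NDUFA5 and NDUFB4 with 12 each. Reads shared between a gene and such a copy may be lost or moved by the counting, whose rule for such reads is not given in the sources used here. SDHD has 7 such copies, NDUFS5 7 and ATP5F1A 7, and their values carry that limit. The nearly identical UQCRH and UQCRHL are counted apart, at 30.8, 23.8 and 36.5 CPM and at 53.5, 39.9 and 50.1 CPM in control, and neither passed in any comparison.

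Counts in the further lists of the pathway are to be read against the 16.2% of all genes that rose and the 16.6% that fell with TGF-β1, and with the block against 24.6% and 25.5%. Regulators of mitochondrial biogenesis, from a list of 16 genes with 14 tested, moved in both directions with TGF-β1, 3 higher and 3 lower, and with the block 4 higher and 5 lower. PPARGC1A encodes PGC-1α, a coactivator that raises transcription of respiratory genes. It had 55.3, 33.7 and 72.8 CPM in control, 8.76, 8.97 and 15.9 CPM with TGF-β1, 46.0, 26.8 and 62.4 CPM with dexamethasone and 6.64, 8.88 and 13.3 CPM with both. All 6 libraries with TGF-β1 lay below all 6 without it. The gene fell by 2.21 (SE 0.40; edgeR adjusted p 0.00165) with TGF-β1 alone and fell by 2.18 (SE 0.41; edgeR adjusted p 0.00213) with dexamethasone present. ESRRA, the estrogen-related receptor α that works with PGC-1α, fell by 0.89 (SE 0.13; edgeR adjusted p 0.00011) and fell by 0.45 (SE 0.13; edgeR adjusted p 0.0142) with dexamethasone present. PPRC1, a relative of PGC-1α, rose by 0.55 (SE 0.10), and MYC (0.57, SE 0.19) and GABPB1 (0.27, SE 0.10), a subunit of the ETS-type factor GABP, also rose. NFE2L2 was the third gene to fall, at -0.32. TFAM, which packages and transcribes mitochondrial DNA, fell with dexamethasone present, by 0.44 (SE 0.13; edgeR adjusted p 0.0167).

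Among genes of coenzyme Q synthesis and electron carriers, 8 of 19 fell with TGF-β1 and 6 of 19 with dexamethasone present, beside 1 and 0 rises. With dexamethasone present 16.4% of all genes fell, and with the block 12 of the 19 fell in each comparison, beside 2 and 0 rises. COQ9 (-0.60, SE 0.12), COQ8B (-0.58, SE 0.16) and PDSS2 (-0.53, SE 0.18), all needed to make coenzyme Q, fell, and COQ10B rose by 0.39 (SE 0.12). The median difference of the list was -0.33, against -0.10 for the nuclear members and -0.01 for all genes. In the citric acid cycle 5 of 18 genes fell and 0 rose, and with the block 10 fell and 1 rose. The falls were led by IDH3A (-0.76, SE 0.19), OGDH (-0.57, SE 0.10) and DLAT (-0.54, SE 0.11). Of 42 tested assembly factors of complexes II to V 7 fell and 1 rose, and with the block 8 fell and 3 rose, so the falling share was near or below that of all genes. Among those that fell were ATPAF1, which assembles F1, from 49.1 to 50.2 CPM to 27.7 to 30.9 CPM (-0.75, SE 0.09; edgeR adjusted p 3.54e-05), LYRM7 (-0.67) and UQCC1 (-0.50), which act in complex III assembly. The rise was that of COX19 (0.40, SE 0.13). Among 10 tested carriers, porins and creatine kinases 4 fell, including SLC25A4 (-0.96, SE 0.21), an ADP/ATP carrier, and UCP2 (-0.65, SE 0.15), and VDAC1 rose by 0.32 (SE 0.09). CKMT1A also fell (-1.96, SE 0.37), but it shares reads with its near-identical copy CKMT1B and its value is uncertain. Of 12 further complex I assembly factors 1 fell, LYRM2 (-0.29, SE 0.10).

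Of 19 glycolysis and lactate genes, 4 rose and 2 fell with TGF-β1, and with the block 9 rose and 4 fell. LDHA, which turns pyruvate into lactate, had 467, 561 and 475 CPM in control and 1050, 959 and 1170 CPM with TGF-β1, a rise of 1.08 (SE 0.11; edgeR adjusted p 4.25e-06). PGK1 (0.44, SE 0.14) and TPI1 (0.40, SE 0.10) rose, and ENO2 (-1.03, SE 0.32) and ENO1 (-0.32, SE 0.09) fell. HK2, the hexokinase that commits glucose, rose with dexamethasone alone from 44.7, 40.4 and 59.2 CPM to 217, 174 and 235 CPM (2.10, SE 0.26; edgeR adjusted p 0.000209). With both agents it stood at 45.0, 43.2 and 56.9 CPM, within the range of control. Of 79 tested genes of the mitochondrial ribosome 5 rose, led by MRPL37 (0.63, SE 0.12), and 3 fell, led by MRPL34 (-0.59, SE 0.15). With the block 10 rose and 9 fell, and in both fits these shares were below those of all genes. Among 26 genes of mitochondrial transcription and RNA stability, REXO2 (0.73, SE 0.15) and SUPV3L1 (0.29) rose and PDE12, which removes poly(A) tails in mitochondria, fell by 0.75 (SE 0.14; edgeR adjusted p 0.000988). Of 13 mitochondrial DNA replication genes 4 rose, including TWNK (0.38), RNASEH1 (0.37) and SSBP1 (0.37), and MGME1 fell (-0.29). With the block the RNA list had 3 higher and 6 lower and the replication list 6 higher and 3 lower. With dexamethasone alone none of the genes for mitochondrial RNA or DNA upkeep passed in edgeR, and with the block 2 rose among the RNA genes and 1 rose and 1 fell among the replication genes. Of all genes 5.54% rose and 4.90% fell with dexamethasone alone, and with the block 10.8% and 11.4%. The counts in these 2 lists were not above those shares. These lists, like the members, were chosen with earlier results of these data known. Of the 7 epithelial markers, KRT18 (-1.27), KRT19 (-1.63) and CDH1 (-0.65) fell with TGF-β1 and KRT7 rose (0.76), and their part in these differences was not tested.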

How the data were processed

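RNA of 12 libraries was analysed, 3 in each of 4 groups named by sample titles. Libraries were made from 500 ng RNA with poly(A) selection, per the labels' protocols. The authors deposited raw read counts per Entrez gene identifier, and featureCounts and hg38 are named in the submitters' processing notes; which aligner, annotation and strand setting were used is not given in the sources used here. A further 6 columns of the table match no sample and stayed unused.

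Of 28395 identifiers 27745 matched the RefSeq gene table. Counts passed filterByExpr (minimum count 10), were scaled by TMM (factors 0.882 to 1.102) and tested with edgeR 4.0.16 in R 4.3.3 over 12 libraries, 1 mean per group, with Benjamini-Hochberg adjustment over 13469 genes. DESeq2 1.42.0, the replicate block, other scalings and filters and leave-one-out fits were alternatives. Same-numbered libraries deviated together: 18 of 18 pairs across groups correlated above 0.1 (0.25 to 0.541), with the numbers taken from the titles. The block took edgeR's common biological variation coefficient from 0.122 to 0.0577. To look for a library deposited more than once, replicates were compared with counting error alone; the chi-square per degree of freedom was at least 5.45, so none were merged. Total counts of 5861591 to 19727235 set the counting precision.

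The named genes are the 6 largest rises and falls per comparison past the test, all mitochondrial genes, the paralogs, F1, complex II and CYC1, and up to 3 per further list and direction. Others are named because they passed the test, or were chosen after their values were seen. The members, lists and rules were chosen with earlier results of these data known. The promoters shown, the counts over same-numbered pairs, the ratio of the 2 genomes, the levels per kilobase, and the block with library size together were chosen after seeing the data. Promoters are from RefSeq, build GRCh38.p14.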

Additional observations from a re-analysis of the deposited data

Results flagged for a closer look

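HK2, a glycolysis gene outside the members, was the gene of the further lists whose dexamethasone effect differed with TGF-β1 by the interaction test without the replicate block. Its interaction was -1.87 (SE 0.36; edgeR adjusted p 0.0392) on the log2 scale. Dexamethasone alone took it from 40.4 to 59.2 CPM in control to 174 to 235 CPM, whereas after TGF-β1 it stood at 24.6 to 56.3 CPM without and 43.2 to 56.9 CPM with dexamethasone. With the replicate block 4 genes of these lists passed that test: HK2 (-1.89, edgeR adjusted p 0.000146), PFKP (0.53, 0.00157), ESRRA (0.44, 0.0424) and NFE2L2 (0.28, 0.0439). Among all 13469 genes 0.884% passed it without and 4.78% with the block. HK2 and PFKP were among 19 tested glycolysis genes, and ESRRA and NFE2L2 among 14 tested regulators. None passed among the 79 tested genes of the mitochondrial ribosome or in the other lists. With 3 libraries per group, single libraries were not examined as outliers.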

How the results depend on the processing

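Counts of nuclear members with TGF-β1 against control (14 lower, 2 higher) were 41 and 1 with library size alone, 24 and 8 with the replicate block, and 9 and 1 with no filter on low counts. The lower count was 64 with library size and the replicate block together. For this pair of changes the share of all genes was not computed, here or below, so such counts have no background beside them. With library size alone 32.2% of all genes were lower. Without the NDUFAF genes 1 nuclear member was higher. Leaving out 1 library gave 4 to 19 lower and 1 to 2 higher. Mitochondrial genes lower (0) were 8 with library size, 4 with the replicate block and 12 with both changes. For the combined treatment against dexamethasone (18 lower, 2 higher), nuclear counts were 47 and 0 with library size, and 73 and 1 with library size and the replicate block together. The higher count was 5 with the replicate block and 1 with no low-count filter, with only the groups compared, or without the NDUFAF genes. Leaving out 1 library gave 8 to 18 lower and 0 to 2 higher. The mitochondrial count (3 lower) was 10 with library size, 11 with the replicate block, 13 with both changes, 0 with only the groups compared, and 0 to 6 with 1 library left out. For dexamethasone against control, the mitochondrial count (1 higher) was 0 with library size, 12 with the replicate block, 3 with both changes, 0 with only the groups compared, and 0 to 2 with 1 library left out. For the combined treatment against TGF-β1, the replicate block gave 2 mitochondrial genes higher and 1 nuclear member lower, and 1 lower with library size as well. Of the 40 single calls, all 40 passed with the replicate block, 36 with DESeq2's size factors in edgeR, 36 with library size alone, 35 with DESeq2, 29 with only the groups compared and 28 with no low-count filter, and none of these turned its direction. Where 1 library was left out, a group of 2 remained and the spread was shared by all groups. With 5861591 counts in the shallowest library, low paralogs such as COX4I2 and COX8C could not be compared.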
